A study of Mus musculus with 12 samples.

Results

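The AMPA and kainate receptor subunit genes were taken from the count table by symbol, as Gria1 to Gria4 and Grik1 to Grik5. All 9 genes were present among the 33024 gene symbols of the table and all 9 passed the filter on low counts that left 16059 genes for testing. AMPA and kainate receptors are tetrameric ion channels opened by glutamate, and together with the NMDA receptors they carry excitatory transmission in the cortex. AMPA receptors give the fast component of the response, and whether the GluA2 subunit, the product of Gria2, is part of the channel decides how much calcium passes. Kainate receptors act on both sides of the synapse, with GluK1 to GluK3, the products of Grik1 to Grik3, able to form channels of their own and GluK4 and GluK5, the products of Grik4 and Grik5, acting as high-affinity partners.

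The RNA came from cortex of wildtype C57BL/6 mice on the 2-bottle choice drinking-in-the-dark paradigm (2BC-DID), in which animals chose between a bottle of ethanol and a bottle of water during the dark phase. The 5 ethanol-administered mice (EtOH) were offered 20% (v/v) ethanol beside water for 12 h a night in 35 sessions from 30 days of age, while the 7 Control mice received water in both bottles. The sources used here differ on how many weeks the sessions spanned. Per the study's methods, mice of this arm were then abstinent for 14 days and underwent behavioural tests (Morris water maze, Y-maze, forced swimming and rotarod) before they were perfused with saline and the cortex was removed. The tissue was thus taken more than 14 days after the last drinking session. Total RNA was sequenced from 1 library per mouse, and the sex of the mice is not given in the labels used here.

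Libraries held 31768076 to 42183029 counts assigned to genes, with 19284 to 19921 genes detected in each. Control mouse 5 (40690223 counts) and EtOH mouse 1 (42183029 counts) were sequenced more deeply than the rest of their groups. The lowest subunit count was 344, for Grik1, and the highest was 32046, for Gria2, so no subunit was near the floor of 3 counts, which corresponded to 0.0695 to 0.0962 counts per 1000000 counts of a library (CPM). The cortical identity of the tissue was checked with 12 markers of cortical excitatory neurons, all of which were detected, among them the vesicular glutamate transporter gene Slc17a7 at 1955 ± 144 CPM in Control (SD, n = 7) and 1906 ± 223 CPM in EtOH mice (SD, n = 5). The mean log2 CPM of these 12 markers spanned 6.35 to 6.55 in Control and 6.29 to 6.52 in EtOH mice, and these means overlapped. The members of the list moved in both directions, however, with 4 higher and 3 lower at an edgeR adjusted p under 0.05. Fezf2 was called higher (log2 fold change 0.60, adjusted p 0.0001) and Foxp2 lower (-1.21, adjusted p 1.43e-05). Neurod2 and Fezf2 were above, and Bcl11b and Foxp2 below, the Control range in every EtOH mouse, so an overlapping mean does not show that the cortical content was the same. Among Control mice, Bcl11b (102 CPM) and Foxp2 (19.1 CPM) were lowest in mouse 7. The mean log2 CPM of the striatal markers described below was also lowest in that mouse (5.64). Whether the lower Bcl11b and Foxp2 of EtOH mice came from cortical or striatal cells was not tested.

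The means of other marker lists separated the groups, which bears on every comparison that follows. Markers of striatal neurons averaged a log2 CPM of 5.64 to 6.91 in Control and 3.15 to 3.77 in EtOH mice, with 14 of 14 genes called lower, and markers of the hippocampus averaged 2.20 to 2.55 in Control and 3.65 to 4.63 in EtOH mice, with 7 of 10 called higher. Markers of inhibitory interneurons averaged 6.51 to 6.78 in Control and 6.17 to 6.40 in EtOH mice, with 3 of 8 called lower. Of the 12 marker lists, those of thalamus (higher) and microglia (lower) also had means that did not overlap between the groups. In the thalamus list 1 of 6 genes was called higher, Slc17a6 (log2 fold change 1.08), and 3 were higher at an edgeR adjusted p under 0.05. Tcf7l2 (-0.14) and Prkcd (-0.21) of that list had negative values. In the microglia list 1 of 8 genes was called lower and all 8 had negative values. Oligodendrocyte markers averaged 7.82 to 8.12 in Control and 7.26 to 8.14 in EtOH mice, with 7 of 8 lower at an edgeR adjusted p under 0.05 and 4 of 5 EtOH mice below all Control mice. Choroid plexus markers averaged 0.14 to 1.62 in Control and 0.26 to 5.40 in EtOH mice, with 3 of 4 tested called higher. Among them Ttr, the transthyretin gene, was at most 13.1 CPM in Control and at 97.8, 8.99, 911, 241 and 2.16 CPM in the EtOH mice, and so varied widely within that group. The means of the remaining lists overlapped. No listed marker was at 0 in all mice. Because every EtOH mouse stood apart from every Control mouse in the striatal and hippocampal scores, a difference in treatment and a difference in the tissue taken cannot be told apart in these samples, and in bulk RNA fewer cells of a type cannot be told apart from less RNA per cell.

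**Figure D1:**
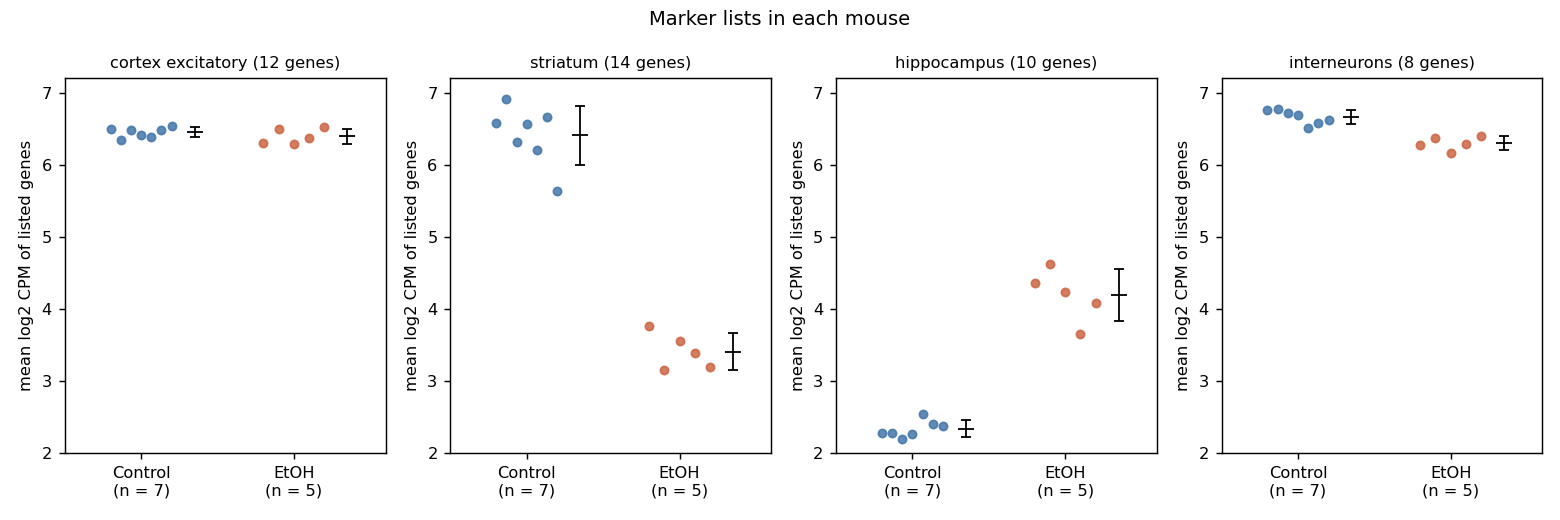
Mean log2 CPM of the genes of 4 marker lists in each mouse (points), with the mean and SD of each group (bars), on a common vertical axis. The mean of the cortical excitatory markers overlapped between Control and EtOH mice, although 4 of its 12 genes did not, whereas striatal scores were 5.64 to 6.91 against 3.15 to 3.77 and hippocampal scores 2.20 to 2.55 against 3.65 to 4.63.

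Each subunit gene encodes the pore loop in which the Q/R site lies, the residue that controls calcium permeability of the channel and that RNA editing can change from glutamine to arginine in the transcripts of Gria2, Grik1 and Grik2. The reference coding sequences around this codon are shown because they place the members in their families and mark the position that the gene counts cannot report on. The 30 coding bases, read 5′ to 3′ on the coding strand from GRCm39 with the Gencode annotation, have the codon of the Q/R site in capitals. Those of Grik1, Grik2 and Grik3 are spliced across an exon junction and are not contiguous in the genome, and the other windows lie within 1 exon.
Gria1: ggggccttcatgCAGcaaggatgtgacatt
Gria2: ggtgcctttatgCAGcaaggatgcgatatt
Gria3: ggtgcttttatgCAGcaaggatgtgatatt
Gria4: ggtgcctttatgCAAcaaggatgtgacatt
Grik1: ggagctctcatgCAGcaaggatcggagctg
Grik2: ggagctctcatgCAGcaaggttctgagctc
Grik3: ggctccctgatgCAGcaaggatctgaactg
Grik4: ggaggcttcatgCAGcaaggctccactatt
Grik5: ggtggcttcatgCAGcagggctcggagatc
All 9 genomic codons encode glutamine, as CAG in 8 genes and CAA in Gria4. Of the 30 bases, 26 to 28 were identical to Gria2 in the other AMPA subunit genes and 20 to 23 in the kainate subunit genes. The codon of Gria2 lies at chr3:80614218-80614220 on the minus strand, in exon 11 of 16 of the transcript used. That of Grik1 lies at chr16:87737430-87737432 on the minus strand, in exon 12 of 16, and that of Grik2 at chr10:49120425-49120427 on the minus strand, in exon 13 of 17. The table counts reads per gene, so the share of edited transcripts was not measured here.

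Gene levels were first compared with each other as CPM per kilobase of annotated exon, since CPM of genes of different length cannot be compared. On this scale Gria1 stood highest in Control cortex at 52.5 ± 3.08 (SD, n = 7), followed by Grik5 at 38.3 ± 1.93, Gria2 at 23.3 ± 1.51 and Gria3 at 22.3 ± 2.37. Grik3 followed at 13.1 ± 1.71, Gria4 at 6.20 ± 0.370, Grik2 at 4.38 ± 0.365, Grik4 at 3.21 ± 0.196 and Grik1 at 1.74 ± 0.111. The order of the group means was the same in EtOH mice, from Gria1 at 71.3 ± 5.45 (SD, n = 5) to Grik1 at 2.37 ± 0.253. Neighbours in this order did not overlap, with 2 exceptions. Gria2 and Gria3 overlapped in Control, where Gria2 was the higher in 5 of 7 mice, and Grik2 and Grik4 overlapped in EtOH mice, where Grik2 was the higher in 4 of 5. The order depends on the length assigned to each gene. With the longest annotated transcript as length, Grik5 at 70.5 and Gria1 at 69.9 changed places in Control, and Gria4 stood above Grik3.

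The comparison of EtOH with Control mice asked which subunit genes differed after abstinence from drinking. A gene was called when the adjusted p of edgeR's quasi-likelihood test was under 0.05 and its log2 fold change was above 0.5 or below -0.5, the cutoffs used in the study. Over all genes 4.20% were called higher and 4.09% lower in EtOH mice, and the median log2 fold change was 7.2e-05. Of the 9 subunit genes 0 were called in either direction by edgeR, DESeq2 or limma voom, while 4 had an unadjusted p under 0.05 with each of these tools. Among all genes tested 36.5% had such a p with edgeR, 37.2% with DESeq2 and 36.3% with limma voom. Without the minimum fold change, 2 of the 9, Gria1 and Grik1, were higher at an adjusted p under 0.05 with edgeR and none was lower, against 12.1% higher and 11.6% lower among all genes tested. DESeq2 passed 3 of the 9 at that threshold and limma voom passed 2, for which the share over all genes was not computed. The median log2 fold change of the 9 genes was 0.04, with 6 positive and 3 negative values. For 7 of the 9, all but Gria1 and Grik1, the 95% interval of the log2 fold change lay between -0.5 and 0.5.

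**Figure D2:**
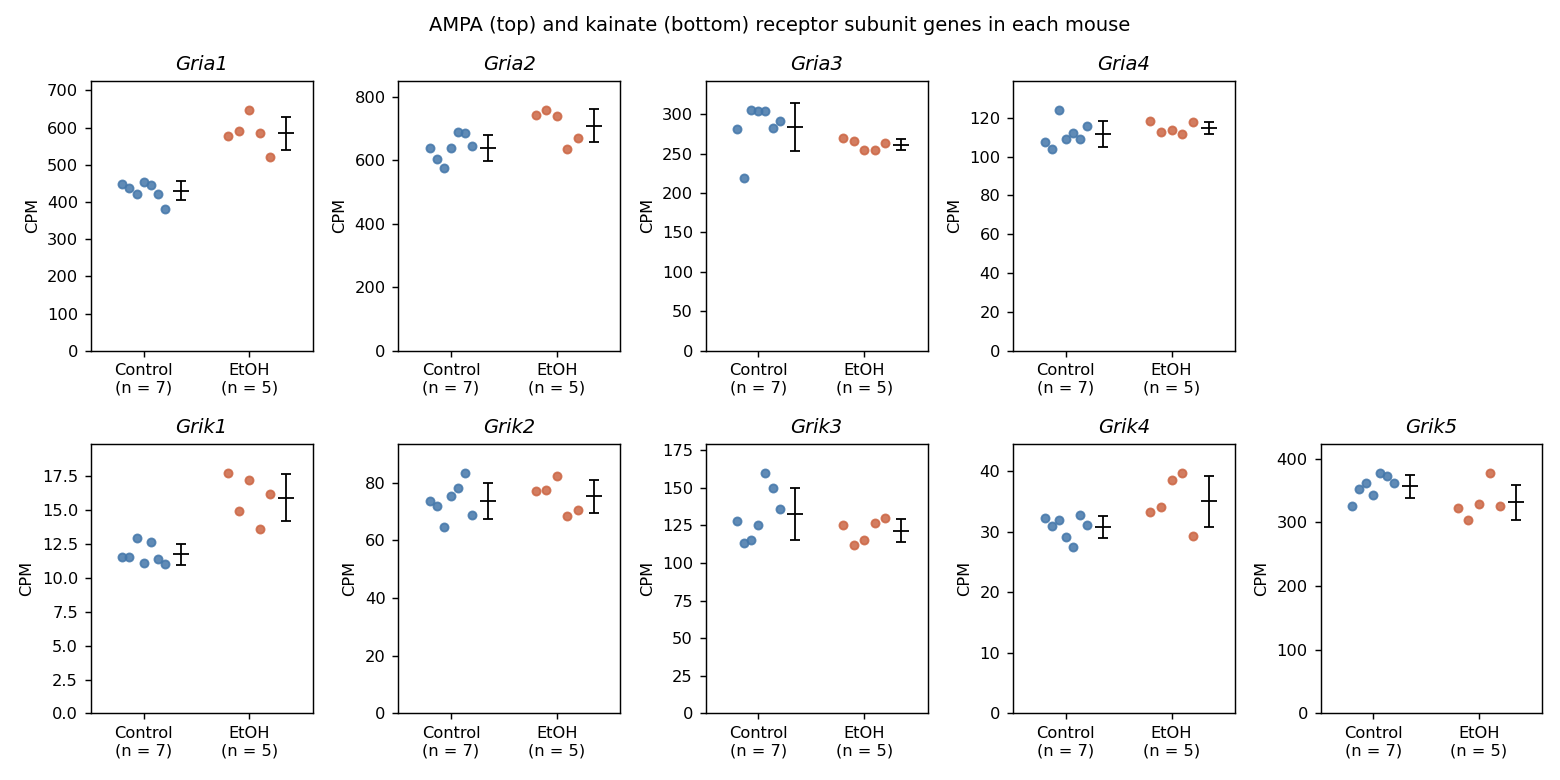
CPM of the 9 subunit genes in each mouse (points), with the mean and SD of Control (n = 7) and EtOH mice (n = 5) as bars. Every EtOH mouse lay above every Control mouse for Gria1 and Grik1, and the groups overlapped for the other 7 genes.

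Among the AMPA receptor subunits, Gria1 encodes GluA1, the subunit that carries the signals for activity-dependent insertion of receptors into synapses, and lies at chr11:56902153-57221080 on the plus strand. In Control mice Gria1 was counted at 380 (lowest), 437 (median) and 455 CPM (highest), and in the EtOH mice at 578, 592, 648, 585 and 522 CPM. All 5 EtOH mice were above all 7 Control mice, a separation seen in 4.84% of all genes tested in this direction and in 4.96% in the opposite one. The mean was 430 ± 25.2 CPM in Control (SD, n = 7) and 585 ± 44.7 CPM in EtOH mice (SD, n = 5), a fold of 1.36. The log2 fold change was 0.44 (SE 0.06, 95% interval 0.32 to 0.56) with an edgeR adjusted p of 2.69e-05, past the threshold on p and below the minimum on fold change. Leaving out each mouse in turn gave log2 fold changes of 0.40 to 0.48, each with an adjusted p under 0.05. Control mouse 7 was the lowest of all mice for Gria1. The part of tissue composition in the difference was not tested.

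Gria2 encodes the calcium-limiting subunit GluA2 and lies at chr3:80588757-80710538 on the minus strand. It was counted at 575, 638 and 690 CPM (lowest, median and highest) in Control and at 743, 759, 738, 636 and 672 CPM in EtOH mice. EtOH mice 1, 2 and 3 were above all Control mice and the other two were within the Control range. Gria2 had a log2 fold change of 0.15 (SE 0.06, 95% interval 0.03 to 0.27) with an edgeR adjusted p of 0.0718 and a DESeq2 adjusted p of 0.0488. The edgeR adjusted p was also under 0.05 without Control mouse 5 (0.0414) or without EtOH mouse 4 (0.0331).

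Gria3, the X-linked gene of GluA3, lies at chrX:40489476-40767490 on the plus strand. It was counted at 219, 291 and 305 CPM in Control (lowest, median and highest) and at 270, 265, 254, 254 and 263 CPM in EtOH mice. All EtOH mice lay inside the Control range, which Control mouse 2 extended downwards. For Gria3 the log2 fold change was -0.12 (SE 0.07, 95% interval -0.27 to 0.03) with an edgeR adjusted p of 0.221, and without Control mouse 2 it was -0.17 with an adjusted p of 0.0126.

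Gria4 encodes GluA4 and lies at chr9:4417604-4796326 on the minus strand. It was counted at 104, 109 and 124 CPM in Control and at 118, 113, 114, 112 and 118 CPM in EtOH mice, and all EtOH mice lay inside the Control range. For Gria4 the log2 fold change was 0.04 (SE 0.05, 95% interval -0.06 to 0.15) with an edgeR adjusted p of 0.578. The exons of Gria2, Gria3 and Gria4 overlap those of other annotated genes, which counting could have divided between them, and those of Gria1 do not.

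The subunits can also be set against each other within a mouse, as shares of the summed level per kilobase of each family. These values follow from the levels above and are given as a description. Gria1 made up 50.3 ± 2.33% of the AMPA subunit level in Control mice (SD, n = 7; range 46.7% to 54.3%) and 57.4 ± 1.94% in EtOH mice (SD, n = 5; range 55.2% to 59.7%), and the groups did not overlap. The share of Gria2 was 22.3 ± 1.28% and 20.8 ± 1.07%, with overlap. For Gria3 the share was 21.4 ± 1.91% in Control and 16.6 ± 1.01% in EtOH mice, and 4 of 5 EtOH mice lay below all Control mice. Gria4 had the smallest share, at 5.95 ± 0.435% and 5.15 ± 0.345%, and here too 4 of 5 EtOH mice lay below all Control mice.

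Per kilobase of annotated exon, the level of Gria1 was 2.26 ± 0.193 times that of Gria2 in Control and 2.77 ± 0.227 times in EtOH mice, without overlap. The size of this ratio depended strongly on the length used. With the longest transcript as length, Gria1 stood at 69.9 and Gria2 at 59.4 in Control. In CPM, without a length, Gria2 was the higher in Control (639 against 430). The summed AMPA subunit level was 104.3 ± 4.31 in Control (98.3 to 109.5) and 124.1 ± 6.39 in EtOH mice (115.4 to 132.2) CPM per kilobase. With the longest transcript as length, the Gria1 share was 36.0 ± 2.10% in Control and 42.7 ± 1.93% in EtOH mice, so the size of the share depended on the length used while the groups again did not overlap.

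**Figure D3:**
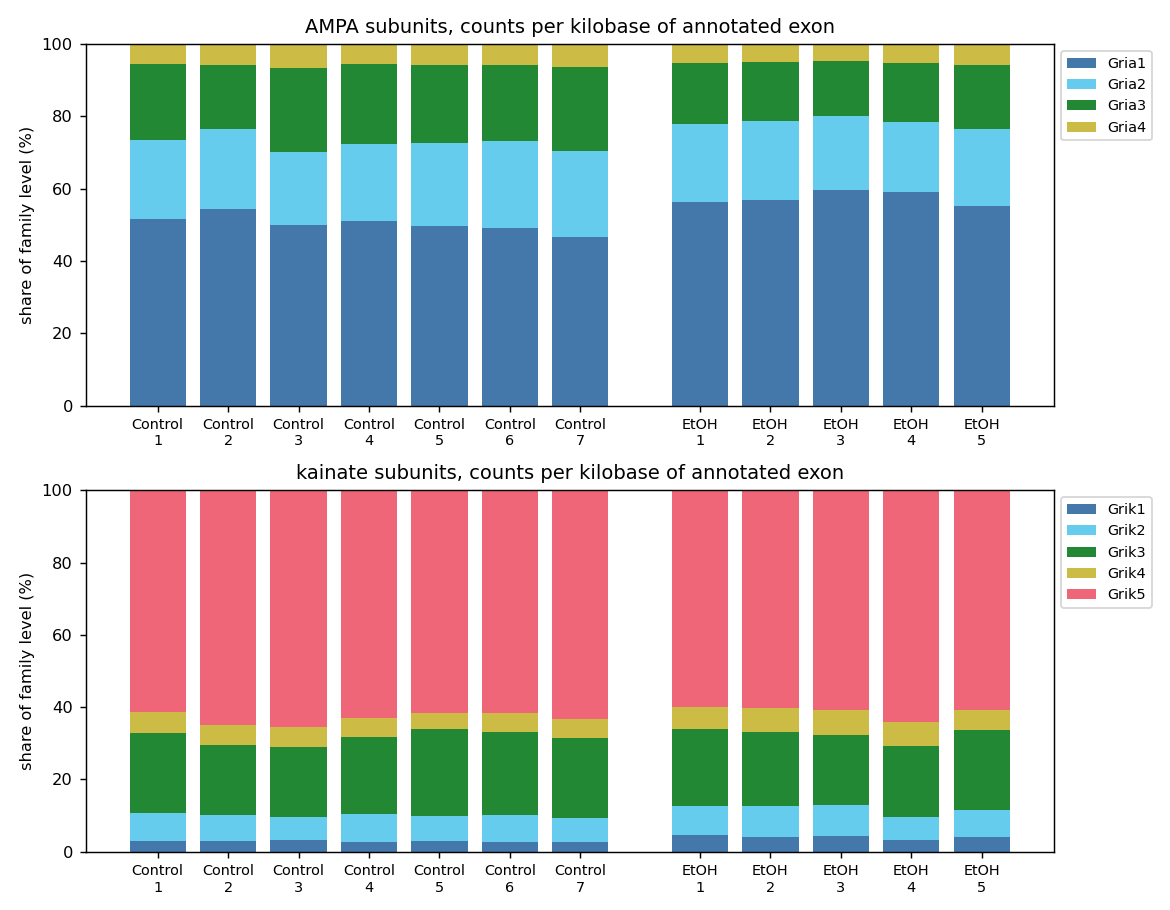
Stacked bars give the share (%) of each subunit in the summed level per kilobase of annotated exon of its family, in each mouse, for the AMPA and the kainate subunit genes. Gria1 held the largest share of the AMPA subunits in every mouse, with 46.7% to 54.3% in Control and 55.2% to 59.7% in EtOH mice, and Grik5 held 63.1 ± 1.64% and 61.2 ± 1.67% of the kainate subunit level (SD, n = 7 and 5).

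Among the kainate receptor subunits that form channels alone, Grik1 encodes GluK1 and lies at chr16:87692788-88087153 on the minus strand. It had the lowest level of the 9 genes and was counted at 11.0, 11.5 and 12.9 CPM in Control (lowest, median and highest) and at 17.8, 14.9, 17.2, 13.6 and 16.1 CPM in EtOH mice. All 5 EtOH mice were above all 7 Control mice. The mean was 11.7 ± 0.746 CPM in Control (SD, n = 7) and 15.9 ± 1.70 CPM in EtOH mice (SD, n = 5), a fold of 1.36. The log2 fold change was 0.44 (SE 0.08, 95% interval 0.28 to 0.61) with an edgeR adjusted p of 0.00065, again past the threshold on p and below the minimum on fold change. Leaving out each mouse in turn gave log2 fold changes of 0.40 to 0.49, each with an adjusted p under 0.05. No other annotated gene overlaps its exons, and the part of tissue composition in the difference was not tested.

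Grik2, which encodes GluK2 and lies at chr10:48970929-49664880 on the minus strand, was counted at 64.7, 73.6 and 83.5 CPM in Control (lowest, median and highest) and at 77.2, 77.6, 82.5, 68.6 and 70.6 CPM in EtOH mice. All EtOH mice lay inside the Control range. For Grik2 the log2 fold change was 0.03 (SE 0.07, 95% interval -0.11 to 0.17) with an edgeR adjusted p of 0.766.

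Grik3, which encodes GluK3 and lies at chr4:125384202-125607966 on the plus strand, was counted at 114, 128 and 160 CPM in Control (lowest, median and highest) and at 125, 112, 115, 126 and 130 CPM in EtOH mice. EtOH mouse 2 was just below the Control range and the other four lay inside it. For Grik3 it was -0.13 (SE 0.08, 95% interval -0.29 to 0.04) with an edgeR adjusted p of 0.270. Neither Grik2 nor Grik3 has exons that overlap another annotated gene.

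Of the high-affinity partners, Grik4, the gene of GluK4 at chr9:42429431-42856154 on the minus strand, was counted at 27.5, 31.1 and 32.8 CPM in Control (lowest, median and highest) and at 33.3, 34.1, 38.6, 39.8 and 29.4 CPM in EtOH mice. EtOH mice 1 to 4 were above all Control mice, and EtOH mouse 5 was within the Control range. The log2 fold change was 0.19 (SE 0.07, 95% interval 0.03 to 0.34) with an edgeR adjusted p of 0.0754, and without EtOH mouse 5 it was 0.24 with an adjusted p of 0.0237. Its exons overlap those of Gm55337 on the same strand.

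Grik5, the gene of GluK5, lies at chr7:24709269-24772708 on the minus strand and had the highest level per kilobase of the kainate subunits. It was counted at 326, 361 and 378 CPM in Control (lowest, median and highest) and at 322, 303, 328, 378 and 326 CPM in EtOH mice. EtOH mice 1 and 2 lay below the lowest Control mouse and EtOH mouse 5 was level with it (325.5 against 325.6 CPM), while EtOH mouse 4 was level with the highest. The log2 fold change was -0.11 (SE 0.06, 95% interval -0.23 to 0.01) with an edgeR adjusted p of 0.191, and without EtOH mouse 4 it was -0.16 with an adjusted p of 0.0436. Its exons overlap those of Zfp574 on the opposite strand, and whether reads were counted by strand is not given in the sources used here.

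In the kainate family, Grik1 made up 2.88 ± 0.210% of the summed kainate subunit level per kilobase in Control (SD, n = 7) and 4.09 ± 0.541% in EtOH mice (SD, n = 5), with 4 of 5 EtOH mice above all Control mice. Grik4 likewise had 4 of 5 EtOH mice above all Control mice, with shares of 5.30 ± 0.483% and 6.27 ± 0.621%, and Grik5 had 4 of 5 below, with 63.1 ± 1.64% and 61.2 ± 1.67%. The groups overlapped for the share of every kainate subunit, and for the summed kainate subunit level, at 60.8 ± 3.43 in Control and 58.1 ± 3.36 CPM per kilobase in EtOH mice. The ratio of the AMPA sum to the kainate sum was 1.72 ± 0.104 in Control and 2.14 ± 0.185 in EtOH mice, without overlap.

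**Figure D4:**
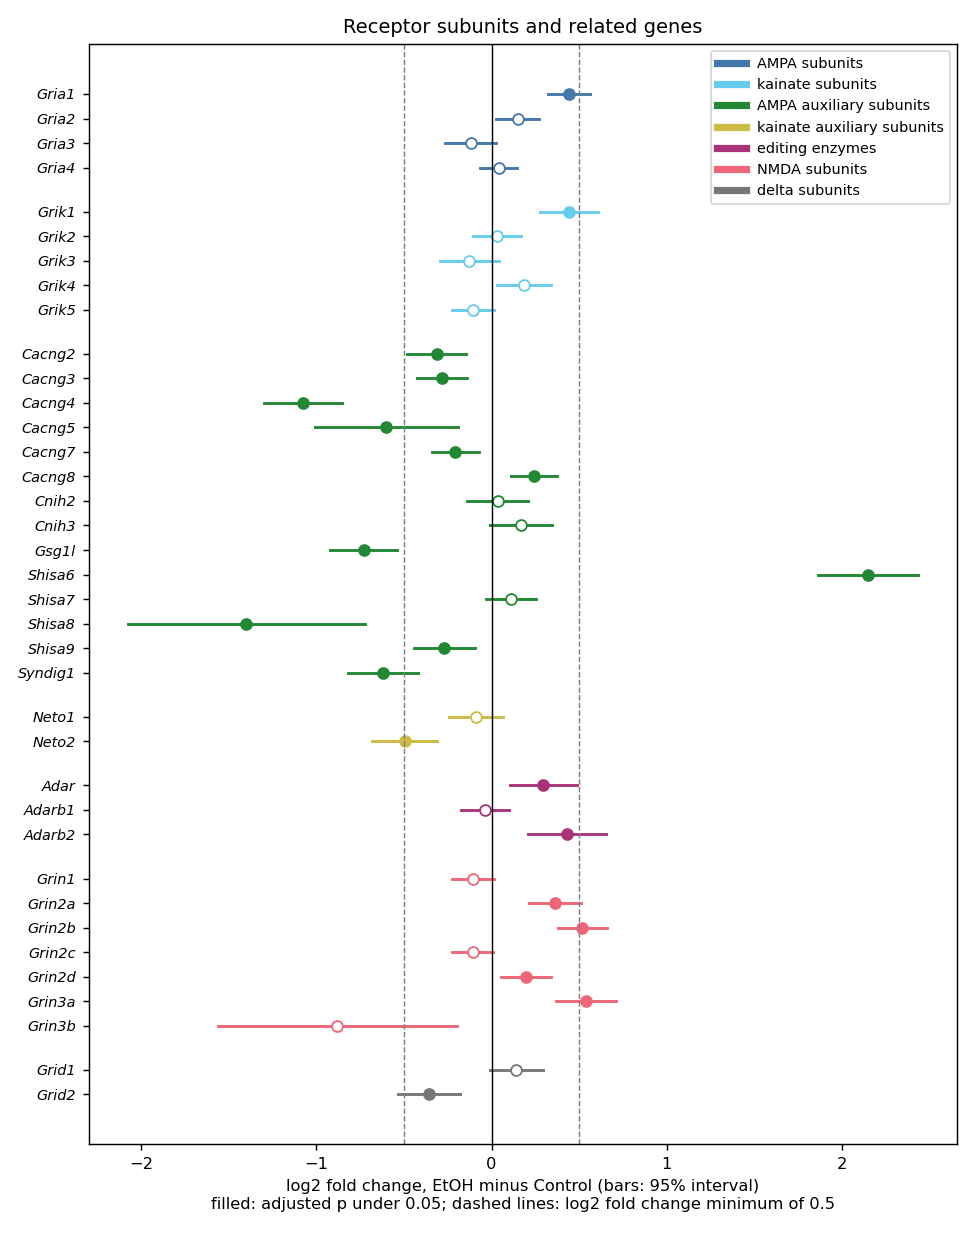
Log2 fold change (EtOH minus Control) of the subunit genes and of related genes, with 95% intervals as bars and filled points for an adjusted p under 0.05. The dashed lines mark the minimum log2 fold change of 0.5 in either direction. Gria1 and Grik1, both at 0.44, lay inside the dashed lines, while Shisa6 at 2.15 lay farthest to the right and Shisa8 at -1.40 farthest to the left.

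The subunits do not travel alone: AMPA receptors are assembled with auxiliary subunits that set their gating and hold them at synapses. Of 14 auxiliary subunit genes tested, 1 was called higher and 5 lower, where 4.20% and 4.09% of all genes were, and their median log2 fold change was -0.28 against 7.2e-05 for all genes. Without the minimum fold change 2 were higher and 9 lower at an adjusted p under 0.05, against 12.1% and 11.6% of all genes.

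Shisa6, whose product holds AMPA receptors at the postsynaptic density, was counted at 14.8, 17.7 and 19.7 CPM in Control (lowest, median and highest) and at 68.7, 72.3, 109.4, 85.8 and 49.9 CPM in EtOH mice. The lowest EtOH mouse was well above the highest Control mouse. The fold was 4.44 and the log2 fold change 2.15 (SE 0.13) with an edgeR adjusted p of 8.20e-09. Fibcd1, a gene of the hippocampal list, went from 11.9 ± 1.14 CPM in Control (SD, n = 7) to 73.0 ± 21.7 CPM in EtOH mice (SD, n = 5). Of that list 8 genes had positive and 2 negative log2 fold changes, and Ociad2 went from 82.2 ± 7.16 to 64.7 ± 2.58 CPM.

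The genes called lower were Cacng4, Gsg1l, Shisa8, Syndig1 and Cacng5. Cacng4, one of the transmembrane AMPA receptor regulatory proteins (TARPs), was counted at 51.2, 68.6 and 84.8 CPM in Control (lowest, median and highest) and at 28.3, 34.0, 35.2, 33.5 and 33.1 CPM in EtOH mice. No EtOH mouse reached the lowest Control mouse, and the log2 fold change was -1.08 (SE 0.11) with an edgeR adjusted p of 1.22e-06. Gsg1l, whose product dampens AMPA receptor currents, was counted at 89.0, 113.9 and 117.9 CPM in Control and at 73.7, 52.8, 60.5, 67.7 and 68.6 CPM in EtOH mice. The groups did not overlap, and the log2 fold change was -0.73 (SE 0.09) with an edgeR adjusted p of 1.80e-05. Syndig1, which encodes a synaptic membrane protein that associates with AMPA receptors, was counted at 38.4, 43.9 and 46.1 CPM in Control and at 26.7, 36.8, 23.3, 23.7 and 28.6 CPM in EtOH mice, with a log2 fold change of -0.62 (SE 0.10) and an edgeR adjusted p of 0.000164.

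Shisa8, of the same gene family as Shisa6, was counted at 3.82, 5.32 and 16.2 CPM in Control and at 3.18, 2.80, 2.86, 2.64 and 3.47 CPM in EtOH mice. Control mice 2 and 4 stood high, at 16.2 and 13.2 CPM, while the other five were at 3.82 to 6.91 CPM, and the highest EtOH mouse was at 3.47 CPM. The groups did not overlap, and the log2 fold change was -1.40 (SE 0.32) with an edgeR adjusted p of 0.00441. The TARP gene Cacng5 was counted at 11.0, 16.3 and 27.1 CPM in Control and at 11.5, 9.21, 12.2, 13.3 and 10.5 CPM in EtOH mice, with overlap. Its log2 fold change was -0.60 (SE 0.19) with an edgeR adjusted p of 0.0322, and the call was lost with limma voom (adjusted p 0.0578). It was also lost without Control mouse 2 (log2 fold change -0.46) or 4 (-0.52) and without EtOH mouse 1 (-0.60), 2 (-0.54) or 5 (-0.58), with adjusted p-values of 0.0624 to 0.0701. The exons of Shisa8 overlap Srebf2 on the opposite strand, and 11 of the 14 auxiliary genes overlap another annotated gene. Drd1, a gene of the striatal list, went from 67.4 ± 18.4 CPM in Control (SD, n = 7) to 11.6 ± 1.66 CPM in EtOH mice (SD, n = 5), and the part of tissue composition in the differences of the auxiliary genes was not tested.

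**Figure D5:**
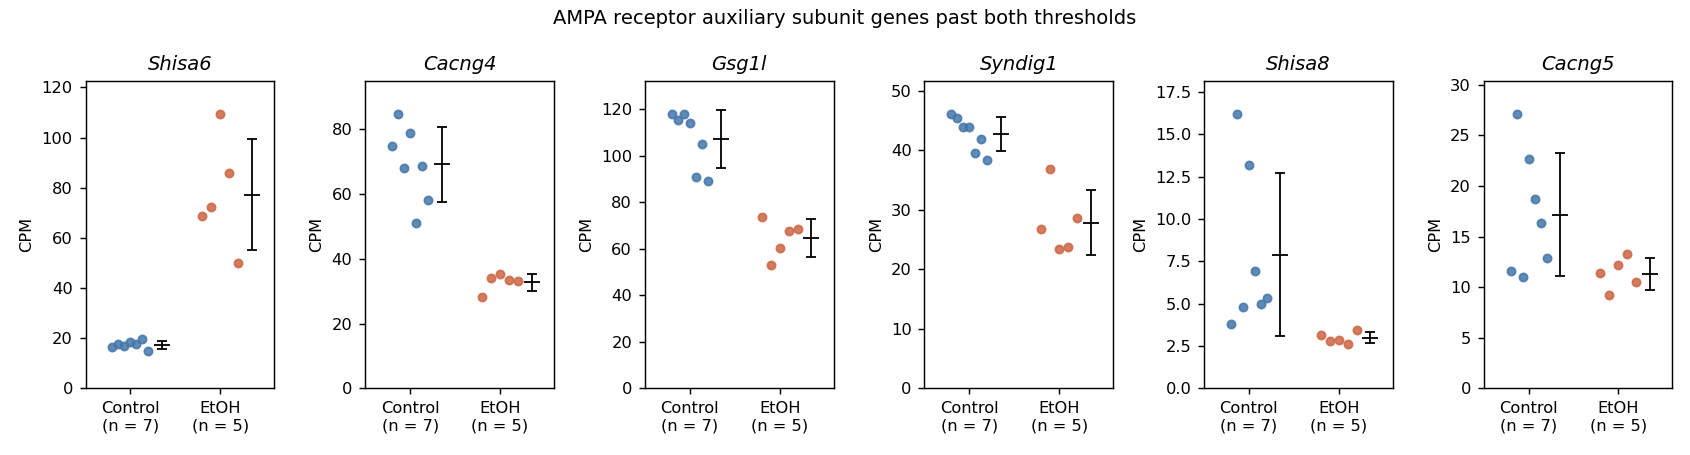
CPM of the 6 AMPA receptor auxiliary subunit genes called in EtOH against Control mice, in each mouse (points), with the mean and SD of each group as bars. Shisa6 was 49.9 to 109.4 CPM in EtOH and 14.8 to 19.7 CPM in Control mice, whereas Cacng4, Gsg1l, Syndig1 and Shisa8 were lower in every EtOH mouse than in every Control mouse and Cacng5 overlapped.

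The other TARP genes had smaller log2 fold changes than Cacng4 and Cacng5. Log2 fold changes were -0.31 for Cacng2 (stargazin, edgeR adjusted p 0.00936), -0.28 for Cacng3 (0.00597), -0.21 for Cacng7 (0.0250) and 0.24 for Cacng8 (0.00931), all below the minimum fold change. For Shisa9 the value was -0.27, with an edgeR adjusted p of 0.0263. The cornichon genes Cnih2 (0.03, adjusted p 0.797) and Cnih3 (0.17, adjusted p 0.152), which act in export of the receptor from the endoplasmic reticulum, and Shisa7 (0.11, adjusted p 0.255) did not pass the edgeR threshold.

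For kainate receptors, whose auxiliary subunits are Neto1 and Neto2, neither gene was called. Neto2 was counted at 72.1, 93.7 and 104.7 CPM in Control (lowest, median and highest) and at 66.1, 67.5, 68.8, 57.8 and 61.7 CPM in EtOH mice, and every EtOH mouse was below every Control mouse. With a log2 fold change of -0.496 (SE 0.09) and an edgeR adjusted p of 0.000572 it fell just short of the fold minimum, and it was called when Control mouse 3, 5 or 7 or EtOH mouse 1, 2 or 3 was left out, with log2 fold changes of -0.55 to -0.50. In all 12 mice it was also called when library sizes were scaled by upper quartiles (-0.50, edgeR adjusted p 0.000513), so its call turned on the scaling as well. For Neto1 the value was -0.09, with an edgeR adjusted p of 0.396.

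The ADAR gene family holds the enzymes that edit glutamate receptor transcripts, and Adarb1, which encodes the one that edits the Q/R site of Gria2, was counted at 218 ± 18.7 CPM in Control (SD, n = 7) and 212 ± 16.7 CPM in EtOH mice (SD, n = 5). Its log2 fold change was -0.04 (95% interval -0.17 to 0.10) with an edgeR adjusted p of 0.721. Adar (0.30, edgeR adjusted p 0.0247) and Adarb2 (0.43, adjusted p 0.00675) had positive log2 fold changes below the minimum, and none of the 3 genes was called. The product of Adarb2 is a family member with no known editing activity of its own.

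Among 17 genes of AMPA receptor assembly, anchoring and trafficking 0 were called higher by edgeR and 1 lower (4.20% and 4.09% of all genes), and the median log2 fold change was -0.02. Without the minimum fold change 2 were higher and 5 lower at an adjusted p under 0.05, beside 12.1% and 11.6% of all genes. The gene called was Nptx2, an activity-regulated pentraxin that clusters AMPA receptors on interneurons, counted at 93.2, 100.1, 93.8, 103.2, 50.4, 55.3 and 62.8 CPM in Control mice 1 to 7 and at 41.9, 32.9, 36.6, 51.3 and 58.3 CPM in EtOH mice. The Control mice were not uniform, as mice 5, 6 and 7 lay close to the EtOH mice and mice 1 to 4 well above them. EtOH mice 4 and 5 lay within the Control range, and the log2 fold change was -0.85 (SE 0.19) with an edgeR adjusted p of 0.00322.

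The remaining ionotropic glutamate receptors, the NMDA and delta families, are given for comparison. Of 7 NMDA receptor subunit genes 2 were called higher and none lower (4.20% and 4.09% of all genes), with a median log2 fold change of 0.20. At an adjusted p under 0.05 without the minimum fold change 4 were higher and none lower (12.1% and 11.6% of all genes). Grin2b rose from 362 ± 36.4 to 518 ± 23.8 CPM (log2 fold change 0.52, SE 0.07, edgeR adjusted p 2.24e-05) and Grin3a from 39.8 ± 4.73 to 57.9 ± 5.35 CPM (0.54, SE 0.08, adjusted p 0.000146; SD, n = 7 and 5). Both lay close to the fold minimum. Grin2b fell under it without Control mouse 2 (0.48) or 3 (0.50) or EtOH mouse 3 (0.49), and Grin3a without Control mouse 7 (0.49) or EtOH mouse 3 (0.50), with adjusted p-values that stayed under 0.05. Of the 2 delta receptor genes neither was called by edgeR. The difference between Grin2b and Gria1 or Grik1 in log2 fold change was not tested.

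The genes whose log2 CPM followed those of Gria1 and Grik1 most closely over the 12 mice were also listed. This is a description across mice that share the difference between groups. Each gene was picked for having one of the highest r among the 16059 genes tested, and how high r would be by chance was not tested. For Gria1 these were Homer3 (Pearson r 0.987), Lhx9 (0.986) and Ptpre (0.976), and for Grik1 they were Apol7a (0.952), Tmem150c (0.933) and Gprasp2 (0.928). After removal of the group means, the closest to Gria1 were A2m (0.934), Stk32a (0.921) and Homer3 (0.921), and the closest to Grik1 were Fsbp (0.868), Med11 (0.863) and Sema3b (0.839). Among the subunits themselves with group means removed, the highest correlation was between Gria2 and Grik2 (0.862) and the lowest between Gria4 and Grik2 (-0.449), each over 12 mice from the same libraries.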

How the data were processed

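Cortex RNA of 12 mice (7 Control, 5 EtOH) was sequenced as total RNA on the DNBSEQ platform. Per the submitters' processing notes and the study's methods, reads were checked with FastQC 0.11.9, aligned with STAR to GRCm39 and counted per gene with featureCounts, with the Gencode annotation. Settings for strand and for reads with several matches are not given in the sources used here. The authors deposited raw counts per gene symbol without normalisation. As 61 of 33024 symbols in the deposited table held values that were not whole, for a reason not given in the sources used here, the table was handled like expected counts and its values were rounded. Every column matched 1 mouse by its title.

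Here counts were filtered with filterByExpr (16059 genes kept), scaled by TMM and tested with the quasi-likelihood test of edgeR 4.0.16 in R 4.3.3, EtOH against Control, with Benjamini-Hochberg adjustment over all genes tested. The adjusted p threshold was 0.05 and the log2 fold change minimum 0.5. DESeq2 1.42.0, limma 3.58.1 (voom), other scaling factors, filters and fold minimums, a replicate block and leaving out each mouse were the alternatives. CPM used TMM library sizes, and log2 CPM a prior count of 2. Levels per kilobase used the union of annotated exons of a gene or its longest transcript (Gencode, GRCm39), which is a later release than the one used for counting. A marker score is the mean log2 CPM of a list. Scripts were tested on simulated counts. The p-values measure the spread between mice, which for genes of low count such as Grik1 and Shisa8 includes a sizeable counting error, and for which the labels name no cages or batches. No libraries of a group were alike enough to be 1 library deposited again, the closest pair having a chi-square of 7.88 per degree of freedom.

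The subunit genes and gene lists were chosen with earlier results of these data known. Named genes were the 9 subunits, all auxiliary and editing genes, the called genes of the trafficking, NMDA and delta lists, and the 3 most correlated genes of each called subunit. As no subunit was called, the last part was applied to Gria1 and Grik1 after their values were seen. Fibcd1, Ociad2, C1ql3, Drd1, Ttr, Slc17a7, Slc17a6, Tcf7l2, Prkcd, Fezf2, Foxp2, Neurod2 and Bcl11b were also named after their values were seen.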

Additional observations from a re-analysis of the deposited data

Results flagged for a closer look

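Within a group, the highest or lowest mouse was compared with its nearest neighbour relative to the range of the group (Dixon's test) for 134 gene, score and depth values, and 11 stood apart where chance would give about 6.7. Values are log2 CPM. Among the subunits, Gria1 was lowest in Control mouse 7 at 8.57 (next 8.72), and Gria3 was lowest in Control mouse 2 at 7.78 (next 8.14). Among related genes, Cacng4 was lowest in EtOH mouse 1 at 4.83 (next 5.05), and Frrs1l was lowest in Control mouse 2 at 8.44 (next 8.66). Control mouse 5 was lowest for Cacng7 at 7.64 (next 7.81) and for Dlg4 at 9.51 (next 9.68), and highest for Adarb1 at 8.01 (next 7.76). Grin2d was lowest in Control mouse 1 at 4.32 (next 4.44). The mean log2 CPM of the blood markers was highest in Control mouse 6 at 3.79 (next 1.14). Total counts were highest in Control mouse 5 at 40690223 (next 32356913) and in EtOH mouse 1 at 42183029 (next 33313165).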

How the results depend on the processing

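Gria1 and Grik1 had an adjusted p under 0.05 under every alternative run, with log2 fold changes of 0.40 to 0.46 and 0.41 to 0.44 outside the fits that left out a mouse. On adjusted p alone the counts grew to 1947 genes higher and 1863 lower, including 2 subunits higher, and 2 auxiliary subunit genes higher and 9 lower. At a minimum log2 fold change of 1, 242 genes were called higher and 282 lower, with 2 auxiliary genes lower. Leaving out each mouse in turn gave 576 to 783 genes higher and 586 to 727 lower, and 0 subunits in each. The sign changed for Grik2 (-0.005 to 0.063), Cnih2 (-0.025 to 0.082) and Adarb1 (-0.071 to 0.008), none of which passed the threshold. An adjusted p under 0.05 was kept in 9 of 12 of these fits for Cacng7, and in 8 of 12 for Shisa9 and Adar.

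No pairing of the mice by replicate number was seen. Correlations of deviations between same-numbered mice were -0.108 to 0.0182, and 1 of 10 mice correlated best with its own number. A pairing that is weak or moves few genes could be missed by such correlations over all genes. With the replicate block 689 genes were called higher and 621 lower, with 0 subunits, and the same 10 mice without the block gave 708 and 666. The block moved no count by over 1.5 times. In these 10 mice Neto2 was past the fold minimum with the block (-0.501) and without it (-0.513), and the adjusted p of Cacng7 was 0.0855 with it and 0.0606 without. That of Cacng8 was 0.0685 with the block and 0.0339 without. Without both deeper libraries, an alternative chosen after seeing the data like the fit of 10 mice without the block, 798 genes were higher and 640 lower, with 4 auxiliary genes lower. The smallest difference that could be detected with 5 and 7 mice was not estimated.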
